A study of Drosophila melanogaster with 12 samples.

Results

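Long gaps between ORC2 peaks at 2nd instar were stretches of the larval fat body genome in which no ORC2 region was called over 100 kb or more. They were taken from the list of ORC2 regions that the authors made at 2nd instar by merging the peaks of both replicates. Regions on 2L, 2R, 3L, 3R, chromosome 4 and X were sorted, and every space of at least 100 kb between the end of one region and the start of the next was a member. Of 4216 spaces between neighbouring regions, 335 were members (7.95%), and they held 62.9 Mb, or 47.0% of the span of those chromosomes. The members were selected on the positions of 2nd instar regions, so the widths and the lack of 2nd instar ORC2 are a description with no test, whereas the peaks of the later stages took no part in the choice.

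The study immunoprecipitated chromatin bound by ORC2 from the fat body of wild-type OregonR male larvae, with 2 biological replicates and their inputs per stage, for 12 libraries in all. Larvae were pooled for each sample and were taken at 3 stages: 2nd instar (68 h after egg laying), mid-3rd instar (92 h) and late-3rd instar (wandering). All groups were of 1 genotype, carried no transgene and received no treatment. On the 6 chromosomes the lists held 4222 merged regions for the 2nd instar, 2045 for the mid-3rd and 698 for the late-3rd, so later stages had fewer regions to place anywhere. The lists hold no reads, so depth is unknown, and a stretch without ORC2 cannot be told apart from one in which ORC2 was not called.

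ORC, the origin recognition complex, binds chromatin and loads the replicative helicase, and its binding sites mark potential origins of replication. Larval fat body, the fly counterpart of liver and adipose tissue, grows by the endocycle, in which cells replicate DNA without dividing and become polyploid. A long stretch with no ORC can be copied by forks that enter from its ends, and in such cells pericentric heterochromatin and some intervals of the arms are known to end with fewer copies than the rest.

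The gaps were 155.7 kb wide at the median, with the middle 50% between 124 and 207 kb, against a median of 9.12 kb for all spaces. The narrowest was 100.155 kb and the widest 766.107 kb. There were 90 gaps of 200 kb or more and 34 of 300 kb or more. Nothing set the members apart at the threshold: the 5 spaces just below it measured between 99.5 and 99.987 kb, and the 5 members just above it between 100.155 and 101.153 kb.

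**Figure D1:**
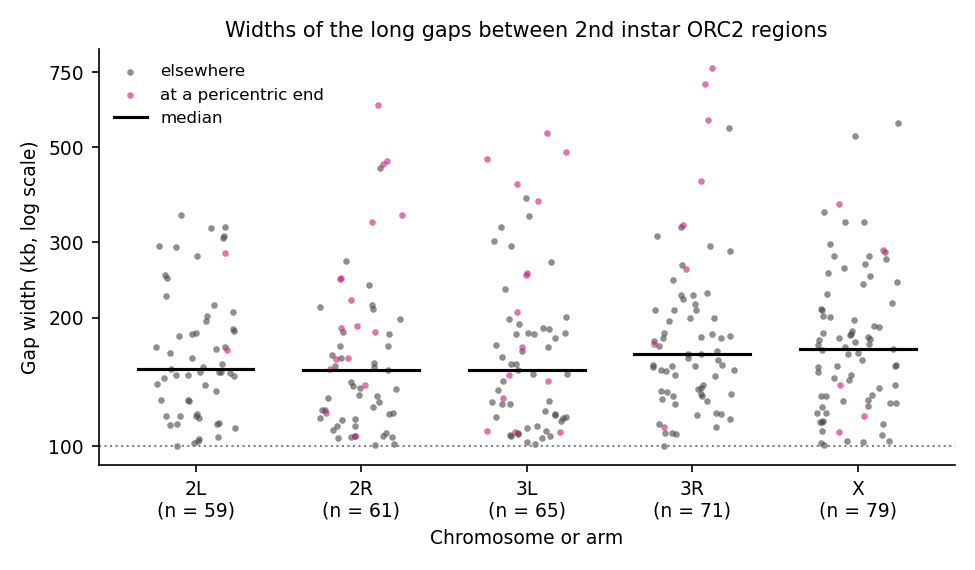
Width of each of the 335 long gaps (y axis, kb, log scale) by chromosome or arm (x axis), 1 point a gap, with points at the pericentric ends in a second colour, a line at each median and a dotted line at the 100 kb limit. The 4 autosome arms and the X have medians between 151 and 169 kb, and the widest gaps are mostly pericentric.

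Gaps occupied much the same part of each autosome arm and more of the X. They covered 44.0% of 2L (59 gaps), 43.4% of 2R (61 gaps), 43.4% of 3L (65 gaps) and 45.0% of 3R (71 gaps), against 63.5% of the X (79 gaps). Of the spaces on the X, 18.2% were members, whereas the shares on the autosome arms lay between 6.5% and 7.53%. Chromosome 4 had none among its 156 spaces. Males carry a single X, and the part of copy number in the number of called regions there was not tested.

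The pericentric ends of the arms, taken as the outermost few Mb next to the centromere, held 47 gaps with 13.1 Mb and a median of 219.7 kb. The 288 gaps elsewhere had a median of 153.7 kb. Gaps also sat next to each other: 86 gaps (25.7%) formed 38 runs in which a single ORC2 region parted one gap from the next. The longest runs by number held 4 gaps, over 1.13 Mb of the pericentric end of 3R (2605502 to 3734503) and over 0.963 Mb of the X (14061240 to 15024468). The widest run in bases was a pair at the base of 3R with 1.47 Mb. Of the 48 regions that stood between 2 gaps, 25 had peaks of both 2nd instar replicates.

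Most of the widest gaps were pericentric and held few whole genes. The widest, 3R:612570-1378676 (766.107 kb), and the next, 3R:1381275-2085587 (704.313 kb), both lay wholly within Myo81F, an annotated myosin gene of 1966 kb in heterochromatin. The third, 2R:3313174-3942193 (629.02 kb), held most of uex, which encodes a magnesium transporter, and RYa, which encodes the RYamide neuropeptides. The fourth, 3R:3041721-3622764 (581.044 kb), held Parp1, the poly(ADP-ribose) polymerase, spok, a cytochrome P450 of ecdysone synthesis, and the end of Pzl, a gene related to the mechanosensitive channel Piezo. In all, 8 gaps lay wholly inside 1 gene, 2 of them in Pzl and others in kirre, CG17684, Ten-a and Dbp80.

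Wide gaps of the arms were not without genes. The fifth widest, X:19666363-20235916 (569.554 kb), had 96 genes whole inside it, among them zld, the factor that opens the embryonic genome, Dop2R, a dopamine receptor, and the odorant receptors Or19a and Or19b. The sixth, 3R:27989677-28544273 (554.597 kb), had 33, among them beat-VI, of a neuronal immunoglobulin family, and Dhc98D, a dynein heavy chain. The eighth, X:1240261-1772497 (532.237 kb), had 54, including br, the broad gene of the early ecdysone response, futsch, a neuronal microtubule-associated protein, and sta, a ribosomal protein. Of the 10 widest, 7 were pericentric. The widest of 2L, 2L:4463691-4811526 (347.836 kb), held dpy, which encodes a giant protein of the apical extracellular matrix, whole.

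Each 2nd instar replicate was also taken alone. Peaks of replicate 1 alone bounded 355 such gaps, of which 315 held a member whole, and peaks of replicate 2 alone bounded 374, of which 321 did. Each member lies in such a gap by construction, so the other gaps of either replicate are the ones that peaks of its partner split or shortened below the limit. The regions that bounded the members had peaks of both replicates in 50.3% of 622 cases (95% Wilson interval 46.4 to 54.2), against 53.4% of the other 3600 regions (51.7 to 55.0) and 52.9% of all. Of the bounding regions 64.6% had their midpoint within 1 kb of a gene end, against 57.8% of the others and 58.8% of all. A mid-3rd instar region lay within 1 kb of 39.5% of bounding regions, against 36.6% of the others and 37.0% of all. These counts come from the list that chose the gaps and were given no test.

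The later stages were compared for ORC2 peaks called in these stretches. Few of the later peaks lay inside. In the ORC2 ChIP of mid-3rd instar, 38 of 928 peaks of replicate 1 (4.09%, 95% Wilson interval 3.00 to 5.57) and 121 of 1985 of replicate 2 (6.10%, 5.13 to 7.24) lay inside the gaps. At late-3rd instar the counts were 11 of 361 in replicate 1 (3.05%, 1.71 to 5.37) and 16 of 495 in replicate 2 (3.23%, 2.00 to 5.19). The gaps made up 47.0% of the same chromosomes, so all 4 libraries had far fewer peaks there than the share of bases. The intervals cover counting error and treat peaks as independent.

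Peak density was 0.0605 and 0.193 per 100 kb inside the gaps, against 1.25 and 2.63 outside them, in mid-3rd instar replicates 1 and 2. It was 0.0175 and 0.0255 per 100 kb inside, against 0.493 and 0.675 outside, in late-3rd instar replicates 1 and 2. The ratio of inside to outside averaged 0.0486 ± 0.0173 (SD, n = 4 libraries), a mean log2 ratio of -4.08 with 0.01 peaks per 100 kb added to both sides (-2.82 with 0.1 added). Density was lower inside in 4 of 4 libraries. The exact sign-flip permutation test over the 4 libraries gave a two-sided p of 0.13. That is the smallest they can give, so 0.05 could not be reached. All 2nd instar regions lie outside by the rule, and many later regions lie on them, so part of this contrast comes with the selection. Without the pericentric ends the ratios lay between 0.0419 and 0.0817.

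**Figure D2:**
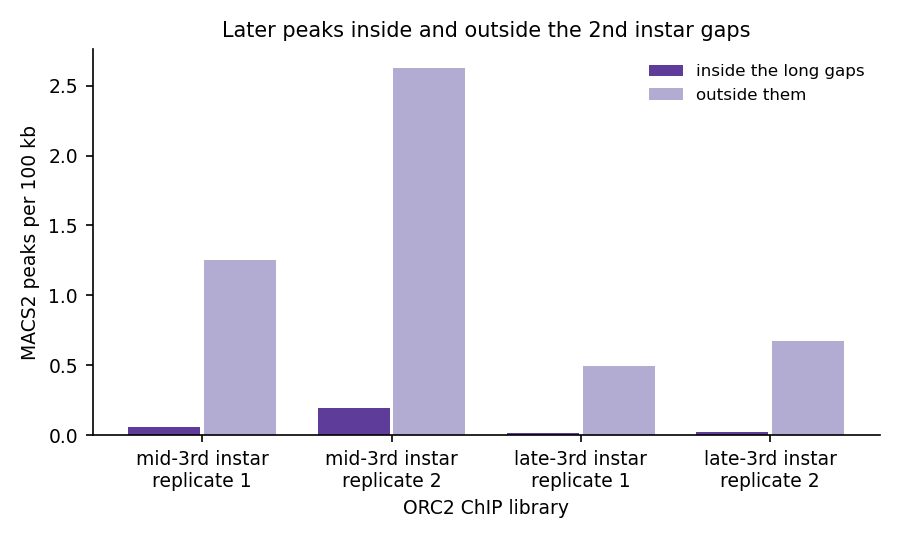
MACS2 peaks per 100 kb (y axis) in each later ORC2 ChIP library (x axis), with a dark bar for the inside of the 2nd instar gaps and a light bar for the rest of the 6 chromosomes. Inside the gaps the 4 libraries lie between 0.0175 and 0.193, all below their own value outside. The rest holds all 2nd instar regions, which the gaps lack by the rule.

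The share inside was 3.14 ± 0.131% at late-3rd instar and 5.10 ± 1.41% at mid-3rd instar (SD, n = 2 each), a difference of -1.96 percentage points. The exact permutation test of 2 libraries against 2 gave a two-sided p of 0.33, which is the smallest possible, so a change between these stages could not be tested at 0.05. The difference came to -0.68 points without the X (p = 1, exact permutation) and to -0.96 points without mid-3rd instar replicate 2, the library with the most peaks.

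At mid-3rd instar the X held 57 of the 138 merged mid-3rd instar regions inside the gaps. On the X, 14.8% (9.71 to 22) and 18.7% (14.4 to 23.8) of the peaks of mid-3rd instar replicates 1 and 2 lay inside gaps, against 2.55% (1.64 to 3.95) and 4.39% (3.49 to 5.50) on the autosome arms. Since gaps cover more of the X, density is the fairer measure: the ratio of inside to outside was 0.10 and 0.132 on the X, against 0.0333 and 0.0584 on the autosome arms. At late-3rd instar these ratios were 0.0339 and 0.0496 on the X, against 0.0424 and 0.0378 on the autosome arms, with no common direction. Only 3 and 5 late-3rd instar peaks lay inside gaps of the X, and the difference between chromosomes has no replicate beyond the 2 libraries.

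Many later regions lie on 2nd instar ones, which the gaps lack by their definition. Spaces under 100 kb lack them too and served as a second comparison, added after the data were seen, with peaks within 1 kb of a 2nd instar region left out on both sides. Density in the long gaps was 0.0595 and 0.187 per 100 kb, against 0.142 and 0.577 in the shorter spaces, in mid-3rd instar replicates 1 and 2. In late-3rd instar replicates 1 and 2 it was 0.0145 and 0.0257 in the long gaps, against 0.187 and 0.0669 in the shorter spaces. The ratio averaged 0.301 ± 0.154 (SD, n = 4), lower in the long gaps in 4 of 4 libraries, with an exact two-sided sign-flip p of 0.13, which 4 libraries cannot go below. The 2 late-3rd instar libraries lay farthest apart, with ratios of 0.0774 and 0.384. The shorter spaces were pooled over all widths, and the widest of them lay close to the narrowest long gaps, as given by class below.

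**Figure D3:**
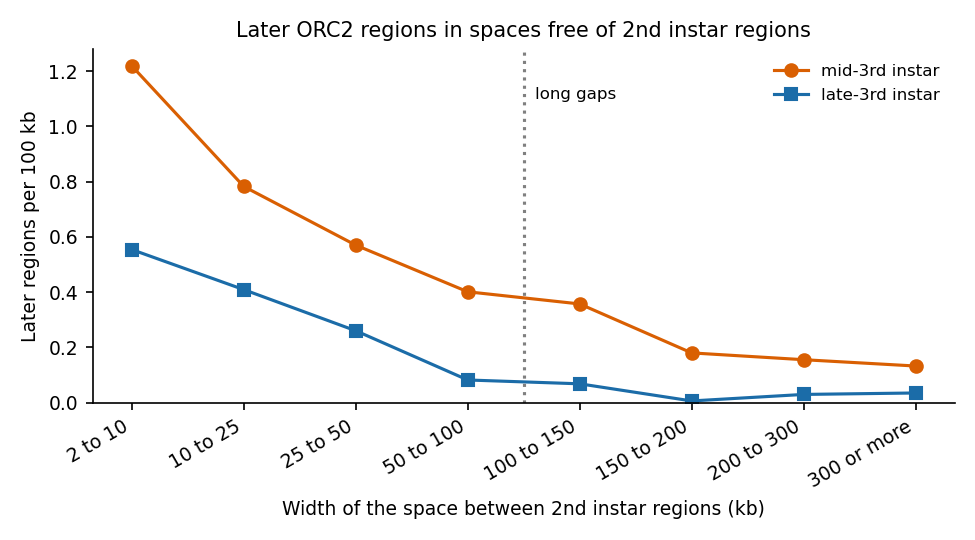
Merged mid-3rd and late-3rd instar regions per 100 kb (y axis) in spaces between neighbouring 2nd instar regions, by width class of the space (x axis, kb), counted more than 1 kb from a 2nd instar region. Mid-3rd instar density is 1.22 in spaces of 2 to 10 kb and 0.132 in gaps of 300 kb or more, and late-3rd instar density is 0.554 and 0.0348 in the same classes.

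Density went down with the width of the space up to the widest class at mid-3rd instar. The step at the 100 kb limit was small, from 0.401 mid-3rd instar regions per 100 kb in spaces of 50 to 100 kb to 0.357 in gaps of 100 to 150 kb. Density was 0.180 in gaps of 150 to 200 kb, 0.155 in those of 200 to 300 kb and 0.132 in those of 300 kb or more. Late-3rd instar density was 0.0819 in spaces of 50 to 100 kb and 0.068 in gaps of 100 to 150 kb. The late-3rd instar counts in the gap classes, from narrow to wide, were 12, 1, 4 and 5 regions, too few for an order. Around the gap ends, mid-3rd instar regions stood at 0.716 per 100 kb in the first 10 kb inside and 0.149 at 40 to 50 kb inside, against 6.18 in the 10 kb outside and 1.72 at 40 to 50 kb outside. The 10 kb outside hold the bounding 2nd instar region itself.

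**Figure D4:**
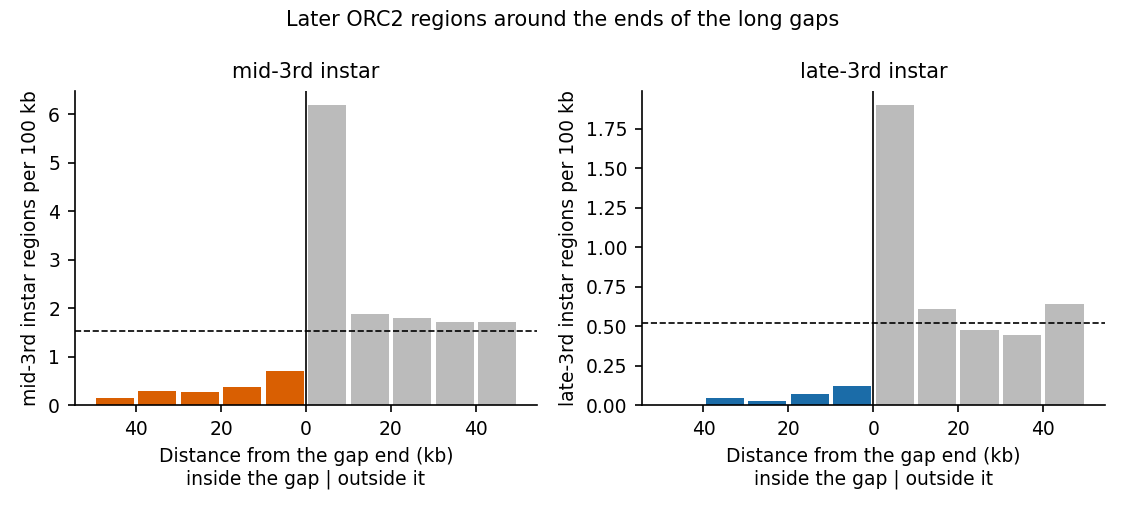
Merged later regions per 100 kb (y axis) in steps of 10 kb around the 670 ends of the long gaps (x axis, distance from the end, with the inside of the gap on the left), for mid-3rd instar and late-3rd instar, with a dashed line at the mean over the 6 chromosomes (1.53 and 0.522). Every step inside lies below the dashed line at both stages.

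Counted as regions, 138 of 2045 mid-3rd instar regions (6.75%) lay inside 102 gaps, and 24 of 698 late-3rd instar regions (3.44%) inside 18 gaps. Within 5 kb of a gap end lay 21 of these mid-3rd instar regions and 4 of the late-3rd instar regions, the nearest at 0.136 and 0.004 kb. No later region at all lay inside 225 of the 335 gaps, and 10 gaps held regions of both stages. The central 100 kb of a gap held a mid-3rd instar region in 48 of 335 gaps (14.3%), whereas 61.1% of consecutive 100 kb windows along the chromosomes did. For late-3rd instar it was 10 gaps (2.99%), against 27.9% of windows. Of these windows 77.1% held a 2nd instar region, which the gaps lack by the rule, so part of the contrast comes with the selection. Counting regions of both replicates, the central 100 kb of 8 gaps (2.39%) held one of mid-3rd instar, against 28% of windows, and of 1 gap (0.299%) one of late-3rd instar, against 4.04% of windows. Counting high-confidence peaks, these were 4 gaps (1.19%) against 15.9% of windows, and 1 gap against 2.47%. With mid-3rd instar replicate 1 alone the central 100 kb of 16 gaps (4.78%) held a peak, against 36.8% of windows. With replicate 2 alone it was 41 gaps (12.2%), against 57.3% of windows.

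Of the mid-3rd instar regions inside the gaps 16 of 138 (11.6%) had peaks of both replicates, against 29.6% of those outside. Peaks of replicate 2 alone made up 72.5% of those inside, against 59.3% outside. At late-3rd instar 3 of 24 (12.5%) had peaks of both replicates, against 12.5% outside. High-confidence peaks, those under the authors' irreproducible discovery rate of 0.1, numbered 8 inside of 306 at mid-3rd instar and 3 of 58 at late-3rd instar. The regions inside lay near gene ends about as often as others, 64.5% against 66.1% outside at mid-3rd instar and 41.7% against 48.2% at late-3rd instar. A mid-3rd instar region lay within 1 kb of 8 of the 24 late-3rd instar regions inside (33.3%), against 61.6% of those elsewhere.

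Some of the later regions inside the gaps lay on genes that the fat body is known for. In the gap X:12473872-12653440 (179.569 kb), mid-3rd instar ORC2 covered Lsp1alpha, which encodes a storage protein that the fat body secretes in the last instar. A region of replicate 2 (12490119 to 12490718) and a region of replicate 1 (12492123 to 12492722) lay at opposite ends of the gene, and 1 high-confidence peak from 12489849 to 12493201 spanned both. No late-3rd instar region lay in that gap. Fbp2, fat body protein 2, sat in 2L:9393314-9495310 (101.997 kb) and was covered at both stages, by a mid-3rd instar region of 1472 bp and a late-3rd instar region of 600 bp, each from replicate 2 alone.

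The only late-3rd instar regions of both replicates outside the pericentric ends were on br and Mur2B, in the eighth widest gap. Broad is a transcription factor of the early response to ecdysone at the end of larval life, and Mur2B, a mucin-related gene, overlaps it. The regions lay at X:1628219-1628819, which met a high-confidence peak, and X:1634928-1635551, 136.9 kb or more from the gap ends. No mid-3rd instar region lay on br, while 1 of both replicates lay on Atf3, a stress-response transcription factor, at X:1274835-1275498 in the same gap. The third late-3rd instar region of both replicates was at 3R:2959131-2959770 in Pzl, beside a mid-3rd instar region of both replicates at 2958459 to 2959282. The remaining late-3rd instar high-confidence peak lay on ribosomal RNA pseudogenes, 0.222 kb from the end of its gap on the X.

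Mid-3rd instar regions with peaks of both replicates lay in 16 gaps. Besides Atf3 and Pzl, they overlapped regucalcin, which encodes a calcium-binding protein, and Socs16D, of a family that dampens cytokine signalling, both with 3 or more peaks over the replicates. Others overlapped Ald1, the glycolytic aldolase, and nvd, the oxygenase of the first step of ecdysone synthesis. Another reached the facing ends of Pp2C1 and of fzr, the activator of the anaphase-promoting complex that turns mitotic cycles into endocycles. Further ones overlapped Unc-76 and csw, a tyrosine phosphatase of receptor signalling, kirre, a cell adhesion gene, Tpst, a tyrosylprotein sulfotransferase, Srrm1, a splicing factor, and IntS6, an Integrator subunit. The gap with most later regions was X:2010094-2137492 (127.399 kb), with 5 mid-3rd instar regions and none at late-3rd instar. One of them, of replicate 2 alone, reached usp, the partner of the ecdysone receptor, and also Actn. At late-3rd instar 2 regions of replicate 2 lay on flam, the piRNA cluster of the X.

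Genes were sparser in the gaps. Whole inside them lay 5307 of 17684 annotated genes (30%), at 8.44 per 100 kb, against 17.5 outside. Outside the pericentric ends it was 10.4 per 100 kb in gaps, against 18.5 elsewhere. In both comparisons, genes that reached across a gap end were counted with those outside. Of protein-coding genes 3948 of 13922 were whole inside (28.4%), and 31.4% of them overlapped a gap. Whole inside were also 48.3% of lncRNA genes, 36.7% of pseudogenes, 17.2% of tRNA genes and 16.7% of snoRNA genes. The lncRNA genes were not sparser, with 1.51 per 100 kb inside and 1.43 outside. Genes covered 62.4% of the bases of the gaps, against 75.8% of the rest.

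The share of protein-coding genes in gaps varied with their length. Their median length was 1804.5 bp, against 2225 bp for those wholly outside. At least 50% of the length lay in gaps for 37.8% of genes under 1 kb, 26.9% of those of 2 to 5 kb, 24.0% of those of 5 to 10 kb and 59.3% of those of 50 kb or more, against 30.7% of all. Long genes that lay in a gap from end to end, with no 2nd instar region, were bru3 (281 kb), which encodes an RNA-binding protein, and Snap25 (225 kb), a component of synaptic vesicle fusion. Others were Rbp6 (179 kb), rg (169 kb), shakB (166 kb), which encodes a gap junction protein, and dpr6 (165 kb). A long gene need not be free of ORC2: bun (91.1 kb) had 18 regions, EcR (81.2 kb), the ecdysone receptor, 13, and Eip75B (114 kb), an ecdysone-induced nuclear receptor, 12.

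Among the 16 gene lists, the neuronal immunoglobulin proteins had the highest share in gaps and the fat body genes the lowest. Whole inside were 47 of 60 neuronal immunoglobulin surface proteins (78.3%, in 38 gaps), the dpr, beat, side and related families that pair neurons by adhesion, such as dpr6, dpr8, dpr10 and beat-VI. So were 36 of 60 odorant receptors (60.0%, 24 gaps), 35 of 60 ionotropic receptors (58.3%, 17 gaps) and 23 of 42 neurotransmitter-gated and voltage-gated channels (54.8%), among them Sh, a potassium channel, and cac, a calcium channel. Odorant-binding proteins counted 21 of 51 (41.2%) and gustatory receptors 21 of 60 (35.0%). All stand beside 28.4% of protein-coding genes, and genes of a cluster share a gap, so they are not independent.

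Regulators of body pattern were also frequent. Of the 8 Hox genes, 4 lay whole inside: lab, pb and Dfd in 1 gap of 159.4 kb with the maternal and early embryonic genes bcd and zen, and Ubx in another of 107.6 kb. Antp lay partly inside, with 83.5% of its length in gaps and 2 regions of 2nd instar. Scr, abd-A and Abd-B overlapped no gap. Of other homeobox and paired-domain genes 32 of 74 lay inside (43.2%, 18 gaps). Among them en and inv shared a gap, and B-H1 and B-H2 shared another. Accessory gland and male germ line genes counted 28 of 65 (43.1%, 13 gaps).

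Fat body storage and metabolism genes counted 5 of 43 (11.6%): Lsp1alpha, Fbp2, Hr96, a nuclear receptor of lipid balance, NLaz, a lipocalin, and upd2, a leptin-like signal. Innate immunity genes counted 7 of 43 (16.3%), of which DptA and DptB, the diptericins, shared a gap. Ecdysone response genes counted 5 of 25 (20%): br, usp, Eip63E, ImpE2 and Sgs4. Cuticle proteins, at 32 of 117 (27.4%), lay near the share of all genes. Replication genes counted 7 of 33 (21.2%), among them Mcm3 and Mcm6 of the helicase, while none of Orc1 to Orc6 overlapped a gap.

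Of 48 proteasome genes 10 lay whole inside (20.8%). All 10 had symbols ending in R or T, in some followed by a digit, such as Prosbeta5R1, Prosalpha3T and Rpt4R. Several of these paralogs are known from testis. Of 16 proteasome genes with such symbols 10 were inside, against 0 of the 32 others; this split was made after the values were seen. Ribosomal proteins counted 21 of 92 (22.8%), among them paralogs such as RpL22-like and RpL10Aa but also RpS26, RpS4 and RpS6.

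**Figure D5:**
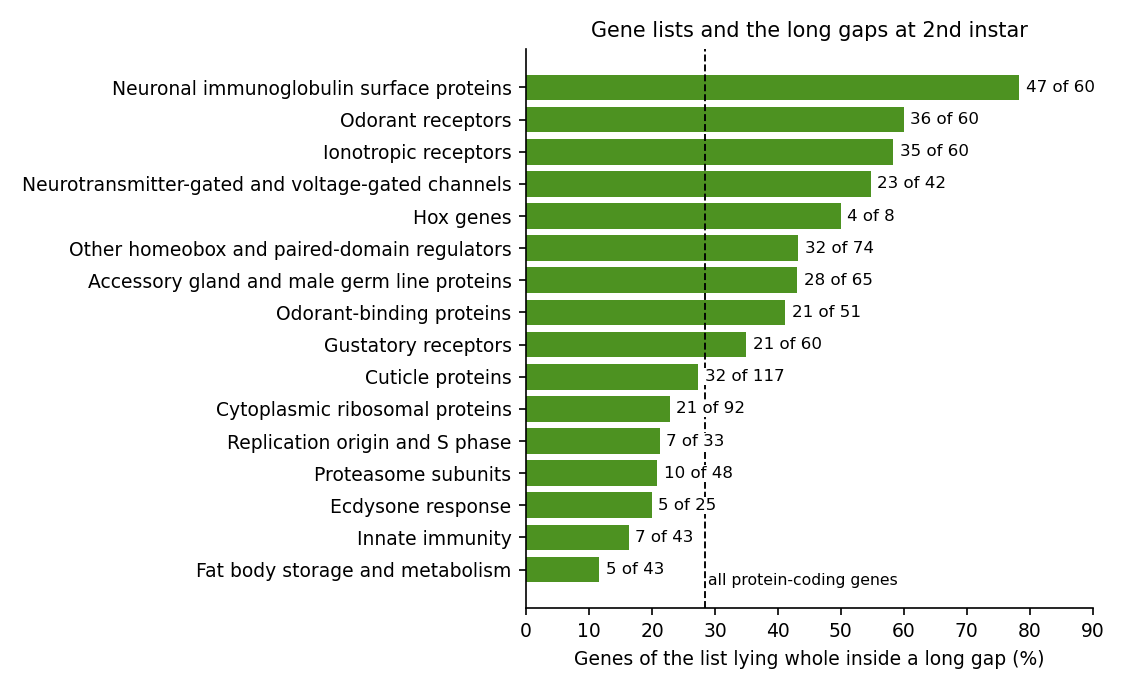
Share of each gene list that lay whole inside a long gap (x axis, %), with the count beside each bar and a dashed line at 28.4% for all protein-coding genes. Neuronal and chemosensory lists lie right of the line, and fat body, immunity, ecdysone, replication, proteasome and ribosomal lists left of it.

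Later regions inside the gaps were also counted on the genes of the lists. A mid-3rd instar region inside a gap overlapped 111 of the 3948 protein-coding genes whole inside (2.81%) and a late-3rd instar region 8 (0.203%). Of the 5 fat body genes, 3 were overlapped at mid-3rd instar (Lsp1alpha, Fbp2 and Hr96) and 1 at late-3rd instar (Fbp2). Of the 5 ecdysone genes, 2 were overlapped at mid-3rd instar (Eip63E and usp) and 1 at late-3rd instar (br). Of 21 ribosomal protein genes 3 were overlapped, RpL18, RpS26 and RpS4. Mid-3rd instar regions also overlapped 1 of 32 other homeobox genes (otp) and 1 of 7 replication genes (fzr). Most of these overlaps rested on 1 library. The regions on Fbp2, Hr96, Eip63E, usp, RpL18, RpS26 and RpS4 had peaks of replicate 2 alone, and the region on otp of replicate 1 alone. No gene inside the gaps was overlapped in the other 11 lists, which ranged from 47 neuronal immunoglobulin genes to 4 Hox genes. For each list taken alone, a count of 0 lies near the 2.81% of all genes. The 4 chemosensory lists together held 113 genes whole inside, of which 0 were overlapped. These are counts of few genes, with no test.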

How the data were processed

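ORC2 ChIP-seq of male larval fat body was analysed from lists that the authors deposited. They aligned paired-end reads of 40 nt with Bowtie2, used MACS2 per replicate against input (q-value under 0.05), and deposited for every stage 1 merged list without scores and 1 list of high-confidence peaks, each with its irreproducible discovery rate (IDR), a rate read like a p-value or q-value and kept under 0.1. The sources name dm3, but positions match Release 6 genes, so the lists were read as Release 6. Underreplicated regions given in dm3 were not used here.

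Gaps ran from the end of one 2nd instar region to the start of the next. Later peaks counted as inside when they lay whole inside. Genes came from RefSeq (Release 6, outer ends, no strand). Lists were symbol patterns. The members and lists were chosen with earlier results of these data known. Named were the 10 widest gaps, the widest per chromosome, 5 on each side of the threshold, the 15 widest of 18 gaps with a later region of both replicates or a high-confidence peak, the 5 longest named genes of each, and genes at later regions; longest genes were named in part. The width classes, other long genes, the gaps with fewer peaks of support and the ends of other gaps were named after their values were seen. Pericentric ends were set as 2L above 22 Mb, 2R below 6 Mb, 3L above 23 Mb, 3R below 5 Mb and X above 22 Mb.

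Peaks of 4 later libraries were compared by exact permutation tests; labels call the replicates biological. No test across genes was run. The counting was tested on simulated data, in which 343 of 343 gaps and 98 of 98 sites were found. Sequencing depth was not given in the sources used here. Alternatives were other widths, single replicates, both-replicate regions, high-confidence peaks, margins and chromosomes left out. Analyses ran in Python 3.11.15 with pandas 2.3.3, numpy 2.4.6, statsmodels 0.14.6, scipy 1.17.1 and matplotlib 3.10.9.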

Additional observations from a re-analysis of the deposited data

How the results depend on the processing

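The number of gaps was 335 at a limit of 100 kb, 469 at 75 kb, 188 at 150 kb and 90 at 200 kb. It was 355 to 374 with peaks of 1 replicate alone. With only the regions that had peaks of both replicates there were 379 gaps, which held 86.6 Mb against 62.9 Mb for the members. Windows of 150 kb with at most 1 region gave 182 low-density domains. Genes whole inside numbered 5307, and 3456 at a limit of 150 kb. The central 100 kb held a mid-3rd instar region in 48 gaps, in 8 with regions of both replicates, in 4 with high-confidence peaks and in 16 to 41 with 1 replicate alone. For late-3rd instar the counts were 10 gaps, 1 with regions of both replicates and 1 with high-confidence peaks. With 1 replicate alone they were 5 to 6, so how many gaps held later ORC2 peaks rested on peaks of single replicates. For mid-3rd instar replicates 1 and 2 alone, 4.78% and 12.2% of gaps held a peak, against 36.8% and 57.3% of 100 kb windows. For late-3rd instar replicates 1 and 2 alone it was 1.49% and 1.79% of gaps, against 13.4% and 22.5% of windows. The late-3rd minus mid-3rd difference in share lay between -2.96 and -0.96 points when each library was left out in turn, and was -0.68 without the X (chosen after seeing the data) and -3.31 at a limit of 75 kb. The mean log2 ratio of density inside to outside was -4.08, and -2.82 with 0.1 added in place of 0.01. With the replicate number as a block, the late-3rd minus mid-3rd difference in share was -1.96 points with an exact permutation p of 0.5. The replicate numbers pair no animals. Alternatives with a p-value were counted as kept when the direction and the side of 0.05 held, whatever the size. Those without a p-value were counted as kept within 1.5 times of the main value. On these rules 37 of the 50 alternatives were kept and 13 moved. The differences in share of -0.68 without the X and -3.31 at 75 kb were thus among those kept, though their size changed. None of the 50 reversed a direction, but many were plain counts, which have no direction and could not reverse. The exact tests could not pass 0.05 in any of them. Depth, coverage and mappability were not given in the sources used here and limit what a gap can mean.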
